A study of Mus musculus with 47 samples.

Results

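The HoxC cluster is 1 of the 4 Hox gene clusters of the mouse, and its 9 genes Hoxc4, Hoxc5, Hoxc6, Hoxc8, Hoxc9, Hoxc10, Hoxc11, Hoxc12 and Hoxc13 were taken by symbol from a gene count table of 38215 genes. All 9 were found, and all 9 are among the 20560 genes that passed the filter on low counts. The table covers 47 RNA libraries of sorted cranial neural crest cells, the migratory cells that build most of the facial skeleton, in 16 groups of stage, place and genotype. Ezh2cKO, a conditional knockout of Ezh2, has 3 libraries at E10.5 from each of 4 places, namely the second pharyngeal arch (PA2), the mandibular (Md) and maxillary (Mx) portions of the first arch, and the frontonasal process (FNP). HoxA2OE, which overexpresses Hoxa2, has 3 libraries from Md at E10.5. Hoxa2TempMut, a temporal knockout of Hoxa2, has 3 libraries from PA2 at E11.5, and a group labelled Control has 3 more. Wild-type (WT) cells have 3 libraries each from E8.5 progenitors and from FNP, Mx, Md and PA2 at E10.5 and E11.5, except Mx at E10.5 with 2. The Cre driver of the Ezh2 deletion, the promoter of the Hoxa2 transgene, the time of the Hoxa2 deletion, the alleles of the Control group and the sorting marker are not given in the labels. The labels number replicates without saying whether they are separate embryos or litters, so the spread behind each p-value is that between samples and may be technical.

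Hox genes encode homeodomain transcription factors that give cells their position along the body axis. Genes at the 3′ end of a cluster are switched on early and far forward, and genes at the 5′ end later and further back, so that gene order mirrors expression order. Where a Hox gene is silent, Polycomb repressive complex 2 (PRC2), whose enzyme is encoded by Ezh2, methylates lysine 27 of histone H3 over the cluster. Cranial neural crest of FNP, Mx and Md is free of Hox expression, and PA2 crest is known for Hoxa2. Hoxc4, Hoxc5 and Hoxc6 are the 3′ members and act in neck and thorax patterning, Hoxc8 and Hoxc9 in the thorax and its motor neurons, and Hoxc10 and Hoxc11 in the lumbar region and hindlimb. Hoxc12 and Hoxc13 lie at the 5′ end, and Hoxc13 is required for normal hair and nails.

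The cluster lies on chromosome 15 of GRCm38 between 102921103 and 103036843, a span of 115.741 kb, with every member on the plus strand and Hoxc13 at the low end. The members differ in the stretch of the homeobox that codes for the recognition helix, the part of the protein that lies in the major groove of DNA. That stretch is printed to show how distinct the members are for reads of 50 bases. It is read 5′ to 3′ on the plus strand from GENCODE M21 transcripts, lies in the last exon of each gene, and has capitals where a base differs from Hoxc4.
Hoxc4: tggttccaaaaccgtcgtatgaaatggaag
Hoxc5: tggttccaGaaccgCAgGatgaaGtggaag
Hoxc6: tggttccaGaaccgCcgCatgaaGtggaaA
Hoxc8: tggttccaGaaTcgAAgGatgaaGtggaaA
Hoxc9: tggttTcaGaaccgGAgGatgaaGATgaaA
Hoxc10: tggttTcaaaaTcgCAgAatgaaaCTCaag
Hoxc11: tggttTcaGaacAgGAgAatgaaaGAAaaA
Hoxc12: tggttccaGaaccgGAgAatgaaaAAgaaA
Hoxc13: tggttccaGaaTcgAcgCGtgaaaGAgaaA

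The Hoxc4 copy lies at chr15:103035804-103035833 in exon 2 of 2, the Hoxc8 copy at chr15:102992712-102992741 in exon 2 of 2, and the Hoxc13 copy at chr15:102927351-102927380 in exon 2 of 2. Over these 30 bases the other members differ from Hoxc4 at 5 bases in Hoxc5 and Hoxc6, and at up to 10 bases in Hoxc11. Taken over whole transcripts, no stretch of 50 bases of Hoxc4, Hoxc6, Hoxc11, Hoxc12 or Hoxc13 occurs in a transcript of another gene on either strand. The share that does was 0.432% for Hoxc8 and 1.44% for Hoxc9, whose shared stretches include some of Hoxb6 and Hoxb9. Hoxc5 and Hoxc10 share 119 such stretches through 1 exon of 166 bases that GENCODE M21 assigns to both. In the count table that exon lies in a separate non-coding gene, Gm20398, which runs from Hoxc10 into Hoxc5. Hoxc10 has 1909 exonic bases in the count table, its GENCODE M21 length with that exon. Hoxc5 has 2923, against 3089 in GENCODE M21, where the exon is included. By these lengths the exon is shared by Hoxc10 and Gm20398. The other exon of Gm20398, of 449 bases, lies within an exon of Hoxc5. Counts of Hoxc5, Hoxc10 and Gm20398 are thus uncertain where the counting could split or share reads between them.

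Library totals ran from 18.8 to 49.8 M counts (M is 1e+06), and levels are given as counts per M (CPM), scaled with TMM factors of 0.514 to 1.16. Ezh2, read first as the targeted gene, had 113 to 157 CPM in the 12 Ezh2cKO libraries, against 350 to 404 CPM in the 11 WT libraries of E10.5. Its log2 fold change was -1.41 ± 0.05 (SE; edgeR adjusted p = 4.09e-24), lower in 12 of 12 libraries, and reads outside a deleted part would still be counted. Markers of cranial crest mesenchyme, 10 genes in all, summed to 1116 to 1704 CPM in the Ezh2cKO groups, against 1215 to 1814 CPM in the WT groups of E10.5, and to 262 to 344 CPM at E8.5. Replicate 1 of E8.5 stood apart from replicates 2 and 3, with a chi-square per degree of freedom of 118 and 128 against them and of 6.67 between the other pair.

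Every HoxC gene rose in Ezh2cKO cells at E10.5. The 9 genes together had 10741 counts over the 12 Ezh2cKO libraries, against 7 counts over the 11 WT libraries. Summed over the members, the level ran from 15.3 to 67.8 CPM in Ezh2cKO libraries, with a median of 31.1 CPM, against 0 to 0.0839 CPM in WT libraries. No Ezh2cKO library overlapped a WT library for any of the 9 members, where 1.72% of all genes tested were higher without overlap. Averaged over the 4 subpopulations, edgeR's quasi-likelihood test called all 9 higher at an adjusted p under 0.05, where it called 16.1% of all genes tested higher. Hoxc6, Hoxc9, Hoxc10, Hoxc11, Hoxc12 and Hoxc13 had at most 3 counts in any library outside Ezh2cKO. Hoxc8 had 50 counts outside Ezh2cKO, up to 40 in 1 library. All these members, Hoxc8 included, passed the filter only through Ezh2cKO groups. The shares of all genes, here and in the Ezh2cKO comparisons below, are thus no independent measure for these members. The median log2 fold change was 9.55 over the members and -0.02 over all genes tested. With the 4 members that had no WT count at their lower bound, the median member was Hoxc4 at 9.50. In bulk samples, more cells that express a gene and more RNA per cell cannot be told apart.

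**Figure D1:**
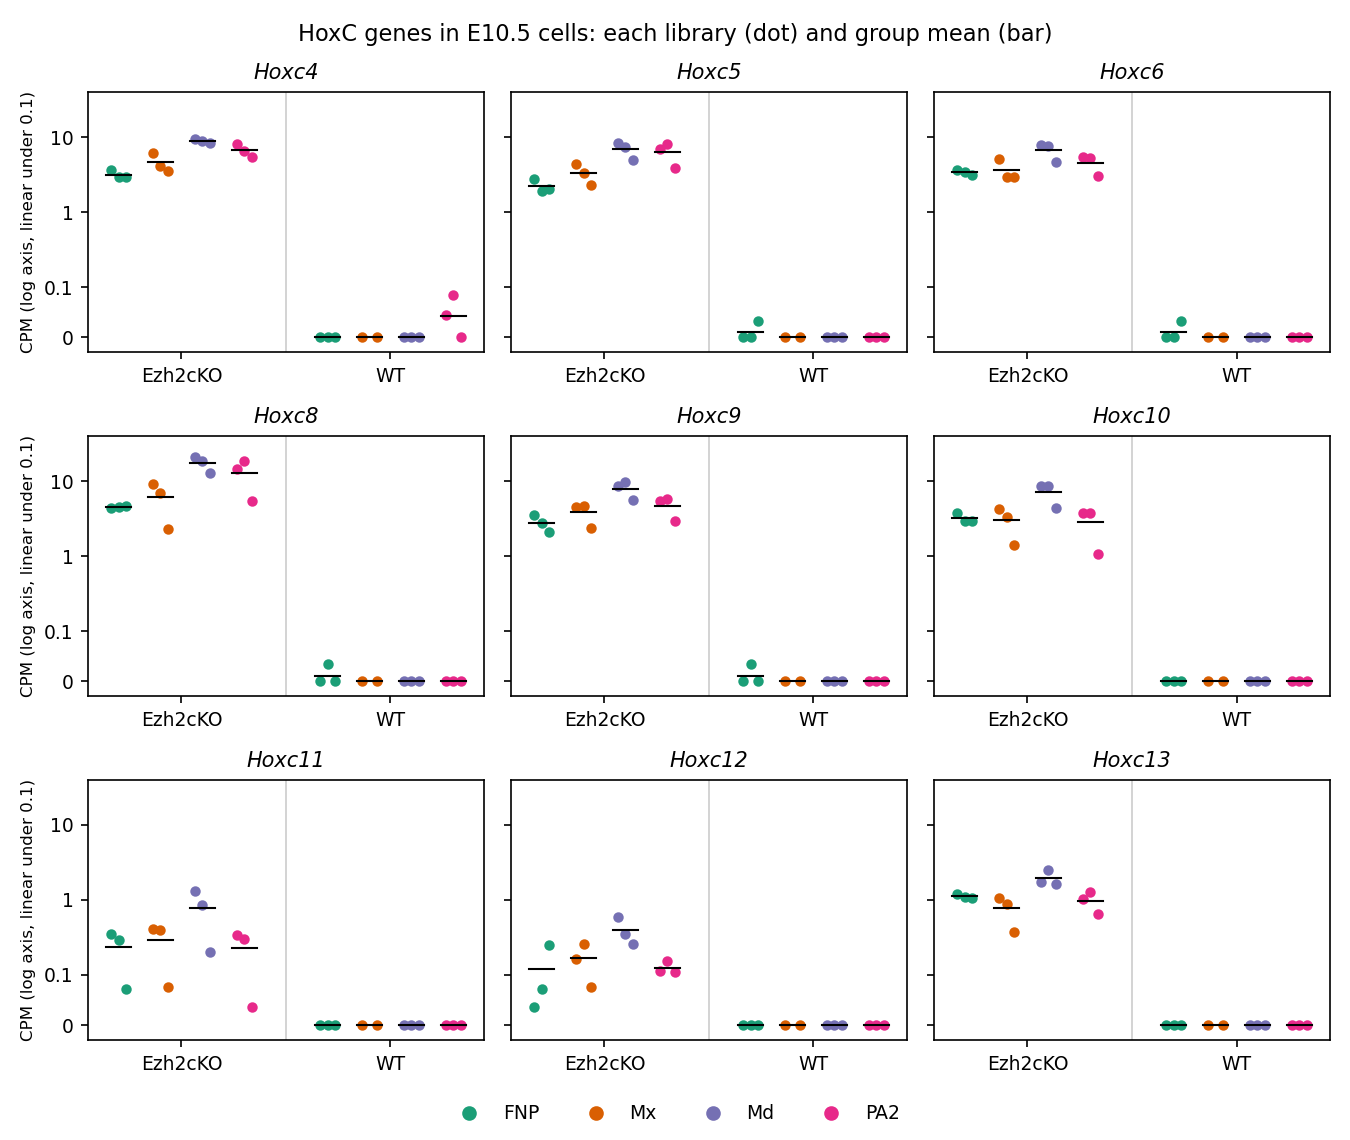
Level of each HoxC gene in E10.5 libraries, in CPM on an axis that is logarithmic above 0.1 and linear under it. Each dot is a library, bars are group means, Ezh2cKO stands left of WT in each panel, and colours mark the 4 subpopulations. All 12 Ezh2cKO libraries lie above all 11 WT libraries in each panel.

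Hoxc4, the most 3′ member, had 3.63, 2.96 and 2.96 CPM in Ezh2cKO FNP, 6.18, 4.20 and 3.50 CPM in Ezh2cKO Mx, 9.61, 8.93 and 8.36 CPM in Ezh2cKO Md, and 8.04, 6.51 and 5.44 CPM in Ezh2cKO PA2. In WT cells it had 0 counts in the 8 libraries of FNP, Mx and Md, and 1, 2 and 0 counts in PA2. The Md libraries were the highest, and those of FNP and Mx overlapped at the low end. Its level was 549 times that of WT (95% counting interval 187 to 2664), higher in 12 of 12 libraries (adjusted p = 1.29e-18). Hoxc5 had a median of 4.18 CPM in Ezh2cKO libraries, between 1.95 CPM in FNP and 8.44 CPM in Md, against 1 count in all WT libraries of E10.5. Hoxc6 had a median of 4.21 CPM in Ezh2cKO libraries, between 2.93 and 7.89 CPM, again against 1 count in WT. Both were higher in every Ezh2cKO library than in any WT library, with ratios of 1330 (238 to 52584) for Hoxc5 and 1306 (234 to 51615) for Hoxc6.

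Hoxc8, a thoracic gene, took the largest share of HoxC counts in Ezh2cKO cells, 28.2% of them. It had 4.35, 4.55 and 4.70 CPM in Ezh2cKO FNP, 9.03, 6.95 and 2.30 CPM in Ezh2cKO Mx, 21.02, 18.6 and 12.8 CPM in Ezh2cKO Md, and 14.3, 18.5 and 5.48 CPM in Ezh2cKO PA2, against 1 count in all WT libraries. Replicate 3 was the lowest of its group in Mx, Md and PA2, and the FNP libraries were close together. The ratio to WT was 2857 (512 to 112882; adjusted p = 5.69e-13). Hoxc9 ran from 2.09 to 9.59 CPM in Ezh2cKO libraries with a median of 4.58 CPM, against 1 count in WT. Hoxc10, with no count in any WT library, ran from 1.05 to 8.71 CPM in Ezh2cKO libraries with a median of 3.74 CPM, at least 380-fold higher against a floor of 3 counts over the WT group.

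The most 5′ members rose to lower levels. Hoxc11 had 10, 8 and 2 counts in Ezh2cKO FNP, 10, 9 and 2 in Mx, 29, 22 and 4 in Md, and 9, 8 and 1 in PA2, against 0 counts in every WT library. Every Ezh2cKO library thus held at least 1 count, and replicate 3 held the fewest in each subpopulation. Hoxc12 ran from 1 to 13 counts per Ezh2cKO library, and Hoxc13 from 10 to 64 counts, both against 0 in WT. The levels were at least 35.9-fold higher for Hoxc11, at least 18.6-fold higher for Hoxc12 and at least 114-fold higher for Hoxc13. Adjusted p was 2.19e-05, 8.21e-06 and 3.60e-12 for these 3 genes, while DESeq2 gave 0.0974 for Hoxc11, which ended that call, and called the other 8 members.

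Within single subpopulations, edgeR called all 9 members higher in both parts of the first arch, 8 of 9 in FNP and 7 of 9 in PA2. Of all genes tested, the share called higher was 4.97% for FNP, 6.85% for Mx, 6.69% for Md and 6.64% for PA2. The members not called were Hoxc11 in FNP (20 counts in Ezh2cKO against 0 in WT; adjusted p = 0.0512), and Hoxc11 (18 against 0; 0.0722) and Hoxc12 (10 against 0; 0.0563) in PA2. DESeq2 called 6 of 9 members in each subpopulation and did not call Hoxc10 in any, at 216 to 499 counts in Ezh2cKO against 0 in WT.

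Along the cluster, the release did not fall steadily with distance from the 3′ end. Per kb of exon, which allows levels of different genes to be compared, the mean level in Ezh2cKO cells was 2.29 CPM per kb for Hoxc4, 1.61 for Hoxc5 and 1.84 for Hoxc6. It was 4.44 CPM per kb for Hoxc8, 1.98 for Hoxc9 and 2.13 for Hoxc10, and then 0.192 for Hoxc11, 0.196 for Hoxc12 and 0.489 for Hoxc13. A step down thus followed the 6 genes from Hoxc4 to Hoxc10 at Hoxc11, across the 9087 bases that separate it from Hoxc10. Hoxc13, the end gene, stood above Hoxc11 and Hoxc12.

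Ordered by level per kb, Hoxc8 was above Hoxc4 in 11 of 12 Ezh2cKO libraries. Neighbouring pairs among Hoxc4, Hoxc10, Hoxc9 and Hoxc6 kept the order of their means in 6 or 7 of 12 libraries, and Hoxc6 was above Hoxc5 in 9 of 12. The order of these genes differed by place. Hoxc10 was above Hoxc4 in 3 of 3 Ezh2cKO FNP libraries (means 1.67 and 1.25 CPM per kb) and below it in 3 of 3 Ezh2cKO PA2 libraries (1.503 and 2.60 CPM per kb). Hoxc5 was above Hoxc13 and Hoxc13 above Hoxc12 in 12 of 12, and Hoxc12 was above Hoxc11 in 5 of 12. The ranks of Hoxc5 and Hoxc10 among the 6 genes from Hoxc4 to Hoxc10 carry the uncertainty of reads shared with Gm20398. Spearman's rho between position from the 3′ end and level per kb was -0.43 to -0.83 over the 12 libraries, across 9 genes that share those libraries. Against the fitted log2 fold change it was -0.42, but each fold rests on 0 to 3 WT counts, so its ranks do not measure the order of release. It moved to -0.68 without replicate 3 of WT FNP and to -0.21 over the 8 members that pass the filter without replicate 1 of Ezh2cKO Md. The mean over Ezh2cKO PA2 libraries gave -0.80, the steepest of the 4 subpopulations.

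**Figure D2:**
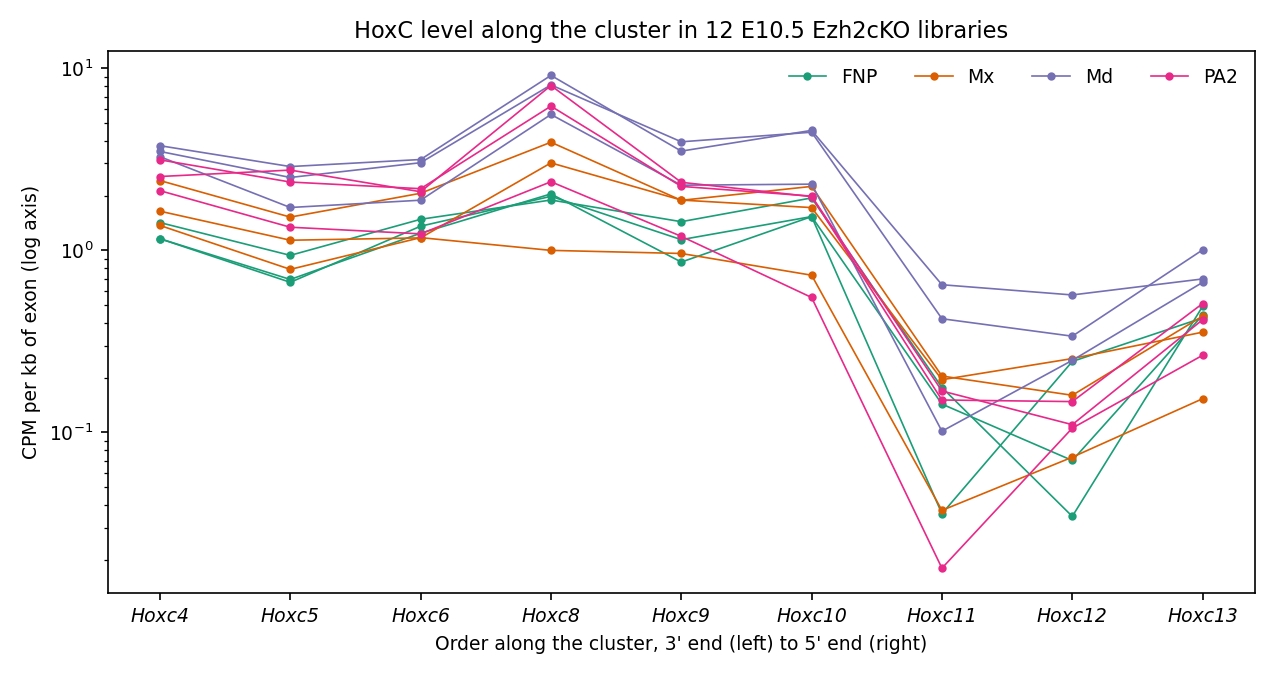
Level per kb of exon along the cluster in the 12 Ezh2cKO libraries of E10.5, with Hoxc4 at the left and Hoxc13 at the right, on a logarithmic axis. Lines join the genes of 1 library and colours mark the subpopulations. Most lines peak at Hoxc8, fall at Hoxc11 and rise again at Hoxc13.

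The subpopulations differed in how much HoxC RNA Ezh2cKO cells held. Summed over the members, the level was 23.2, 20.02 and 19.2 CPM in FNP, 35.3, 26.8 and 15.3 CPM in Mx, 67.8, 64.3 and 43.0 CPM in Md, and 45.4, 49.5 and 22.7 CPM in PA2. Md was the highest, and replicate 3 was the lowest library of its group in all 4. Set against the mean of the other 3 within Ezh2cKO, edgeR called 7 of 9 members higher in Md, where it called 2.62% of all genes tested higher. Hoxc4 rose most clearly there, with 8.97 ± 0.63 CPM in Md (SD, n = 3) against 4.82 ± 1.80 CPM in the other libraries (n = 9), and with no overlap, where 1.28% of all genes tested were higher without overlap. Hoxc8 averaged 17.5 ± 4.22 CPM in Md against 7.79 ± 5.31 CPM in the others. Without replicate 1 or without replicate 2 of Ezh2cKO Md, none of the 9 members was called, and DESeq2 called 4.

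FNP stood at the other end. The test called 4 of 9 members lower in Ezh2cKO FNP than in the mean of the other 3, namely Hoxc4, Hoxc5, Hoxc8 and Hoxc9, where it called 13.5% of all genes tested lower. Their log2 fold changes were -1.03 ± 0.27, -1.23 ± 0.26, -1.29 ± 0.41 and -0.90 ± 0.28 (SE). Without replicate 2 or without replicate 3 of Ezh2cKO FNP the count was 2. Hoxc6 and Hoxc10 differed by -0.51 ± 0.25 and -0.31 ± 0.36 and were not called.

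In PA2 only Hoxc5 was called higher than in the other 3 Ezh2cKO groups, with 6.31 ± 2.15 CPM in PA2 against 4.18 ± 2.37 CPM elsewhere (adjusted p = 0.0311), where 4.66% of all genes tested were called higher. The call was lost without replicate 2 or 3 of Ezh2cKO FNP, replicate 3 of Ezh2cKO Mx or Md, or replicate 1 or 2 of Ezh2cKO PA2. In Mx none of the 9 was called (1 at an unadjusted p under 0.05, 0 by DESeq2), where 4.42% of all genes tested were called higher and 2.79% lower. The difference of the knockout effect between subpopulations, an interaction test, called 0 of 9 (0 at an unadjusted p under 0.05 and 0 by DESeq2) where it called 1.63% of genes tested. With 0 counts on the WT side of most groups, that test has no measured baseline to compare.

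Over the 12 Ezh2cKO libraries, the members moved together to different degrees. Pearson's r of log2 levels ran from 0.54 for Hoxc5 with Hoxc12 to 0.95 for Hoxc4 with Hoxc5, with points that share subpopulation and depth. Replicate 3 of Mx, Md and PA2 was also low in Hoxa2 in Mx (1.24 CPM, against 4.25 and 3.06 CPM in replicates 1 and 2) and Md (3.59 CPM, against 8.21 and 7.46 CPM), but not in PA2 (82.9 CPM, against 77.5 and 85.1 CPM). Ezh2 in the 3 libraries was 128.8, 124 and 128 CPM, within the range of the other Ezh2cKO libraries. Without these 3 libraries the count of members called stayed at 9 of 9 averaged over subpopulations.

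Other transcripts within the cluster rose with the members, while the nearest protein-coding genes of at least 1 CPM outside it moved little. Hotair, the antisense transcript between Hoxc12 and Hoxc11, had 149 counts in Ezh2cKO against 0 in WT, at least 46.9-fold higher. Gm20398 had 392 counts in Ezh2cKO against 0 in WT at E10.5, at least 123-fold higher. The microRNA genes Mir196a-2 and Mir615 had 0 and 2 counts in Ezh2cKO against 0 each in WT, and mature microRNAs are not measured in such libraries. The 3 nearest protein-coding genes with a mean of at least 1 CPM on each side of the cluster, Calcoco1, Atp5g2 and Atf7 on the left and Smug1, Cbx5 and Hnrnpa1 on the right, lay within log2 fold changes of -0.19 and 0.21. They lie 116 kb (Smug1) to 296 kb (Atf7) from the cluster. Flanking genes below that mean were not examined, so where the change ends was not measured. Smug1 was called higher at 0.20 ± 0.06, while Cbx5 and Hnrnpa1 were called lower at -0.14 ± 0.05 and -0.19 ± 0.07.

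Averaged over the subpopulations, 11 of 11 HoxA, 9 of 10 HoxB and 9 of 9 HoxD genes were called higher in Ezh2cKO cells too. The share of all genes tested was 16.1%. In PA2 alone, 9 of 11 HoxA, 8 of 10 HoxB and 6 of 9 HoxD genes were called higher, against 6.64% of all genes tested. Hoxa2 was called higher on average (log2 fold change 4.82 ± 0.31), but had 77.5 to 85.1 CPM in Ezh2cKO PA2, against 124 to 127 CPM in WT PA2. HoxC lacks genes of paralogue groups 1 to 3, and over groups 8 to 13, in which all 4 clusters have members, the median log2 fold change was 8.88 in HoxC, 8.91 in HoxA, 6.19 in HoxB and 6.79 in HoxD. Many of these fits rest on 0 or few WT counts and are no bound, and no test compared the clusters. In WT cells of E10.5 the highest HoxC level was 0.00459 CPM per kb, for Hoxc4, whereas Hoxa2 had 14.1 CPM per kb, both as means over the 11 libraries.

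Of 11 PRC2 genes, 1 was called higher and 7 lower in Ezh2cKO cells, including Phf19 (log2 fold change 1.45 ± 0.17), an accessory subunit, and Eed (-0.28 ± 0.07), a core subunit. Their median log2 fold change was -0.17. Within single subpopulations, 1 was called higher in each, and 2, 2, 1 and 1 lower in FNP, Mx, Md and PA2. Ezh2, the targeted gene, was lower as given above. Of 11 canonical PRC1 genes, 5 were called higher, including Bmi1 at 1.45 ± 0.06 and Cbx7 at 1.17 ± 0.14. Of 9 Hox cofactor genes, 2 were called higher and 2 lower, and Meis1 led at 1.03 ± 0.06. Of 9 axial inducer genes that were tested, 3 were called higher and 1 lower. They were the retinoic acid synthase gene Aldh1a2 (1.09 ± 0.13), the retinoic acid degrading Cyp26c1 (1.38 ± 0.38) and Cyp26a1 (0.57 ± 0.15), and Gdf11 (-0.19 ± 0.05), a ligand of trunk patterning. Of the histone demethylases and Trithorax-type methyltransferases, 2 of 6 symbols were found and neither was called. The background is 16.1% of all genes tested called higher and 14.7% lower.

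Markers of other cell types moved with the genotype as well. Of 8 trunk mesoderm and tail bud markers tested, 6 were called higher in Ezh2cKO cells, and the 10 markers listed summed to 8.87 to 21.8 CPM in Ezh2cKO libraries, against 4.53 to 9.27 CPM in WT libraries, with no overlap within any of the 4 places. T had 56 counts in Ezh2cKO against 16 in WT. Wnt3a had 0 counts in both genotypes, and Msgn1 had 0 in Ezh2cKO and 1 in WT, so these markers do not tell the genotypes apart. Of 7 limb bud mesenchyme markers 5 were called higher and 2 lower, with sums of 88.0 to 155 CPM in Ezh2cKO against 83.7 to 157 CPM in WT. Of 9 epithelial markers tested 6 were called higher. Epithelial sums did not overlap in 3 places, with 9.46 to 10.3 CPM in Ezh2cKO against 2.64 to 3.80 CPM in WT for Mx, 10.3 to 13.5 against 3.87 to 4.21 CPM for Md, and 13.01 to 14.4 against 4.21 to 5.37 CPM for PA2. In FNP they overlapped, at 14.3 to 16.5 CPM in Ezh2cKO against 8.23 to 17.5 CPM in WT, and Krt14 was at 0 in both genotypes. Of 12 neuron and glia markers 6 were called higher and 1 lower. Their sums did not overlap in FNP (26.9 to 32.0 CPM in Ezh2cKO against 17.7 to 19.6 CPM in WT), Md (30.2 to 34.6 against 20.5 to 22.02 CPM) and PA2 (30.7 to 33.7 against 17.6 to 21.8 CPM), and overlapped in Mx (129 to 331 against 208 to 240 CPM). The remaining lists had 3 higher of 10 for cranial mesoderm and muscle, 1 higher of 10 for endothelium, 1 higher and 4 lower of 8 for erythroid cells, 1 lower of 7 for leukocytes, and 1 higher and 1 lower of 10 for cranial crest mesenchyme. The part of these markers in the HoxC result was not tested.

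In WT cells the cluster was near 0 at E10.5, and at E11.5 its 3′ end was measured in PA2. Hoxc4 had 112, 102 and 123 counts (3.51 ± 0.43 CPM, SD, n = 3) and Hoxc5 had 167, 118 and 130 counts (4.31 ± 0.81 CPM) in WT PA2 of E11.5. The other 7 members had 0 to 2 counts per library there. In WT FNP, Mx and Md of E11.5, Hoxc4 had 3 counts and Hoxc5 had 2 counts over 9 libraries. Set against those 3 subpopulations, PA2 was called higher for both genes, where 9.41% of all genes tested were called higher. The ratio was 375 (127 to 1830) for Hoxc4 and 694 (191 to 5746) for Hoxc5, and each was higher in 3 of 3 libraries with no overlap, where 4.98% of all genes tested were higher without overlap. Hoxc6, which lies next in the cluster, had 0 counts in all 3 WT PA2 libraries of E11.5.

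From E10.5 to E11.5 in WT PA2, Hoxc4 rose 77.3-fold (26.2 to 377) and Hoxc5 at least 95.2-fold. These were the 2 of 9 members called, a share close to the 21.4% of all genes tested that were called higher. Markers of other cell types changed over the same day. Of 10 cranial mesoderm and muscle markers 6 were called higher and 1 lower, with sums of 3.76 to 10.7 CPM at E11.5 against 3.34 to 3.48 CPM at E10.5. Endothelium had 5 of 10 higher, epithelium 4 of 9, and trunk mesoderm and tail bud 3 of 8, while 5 of 8 erythroid markers were lower, and their part in the HoxC change was not tested. Gm20398 rose with Hoxc4 and Hoxc5, with 128 counts at E11.5 against 0 at E10.5, at least 29.4-fold. Its counts there came with none for Hoxc10, the other gene it overlaps. Among the paralogues of Hoxc4, the level per kb in WT PA2 of E11.5 was 0.084 CPM per kb for Hoxa4, 0.138 for Hoxb4 and 0.353 for Hoxd4. All 3 were also called higher at E11.5 than at E10.5 in PA2, with at least 19.96-fold for Hoxd4, at least 12.8-fold for Hoxb4 and a ratio of 8.95 (1.34 to 380) for Hoxa4, and all 3 were called higher in PA2 than in the other 3 subpopulations of E11.5. Among whole clusters, 5 of 9 HoxD, 4 of 11 HoxA and 1 of 10 HoxB genes were called higher over this day in PA2. In Ezh2cKO PA2 of E10.5, by contrast, all 9 members had counts in all 3 libraries.

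**Figure D3:**
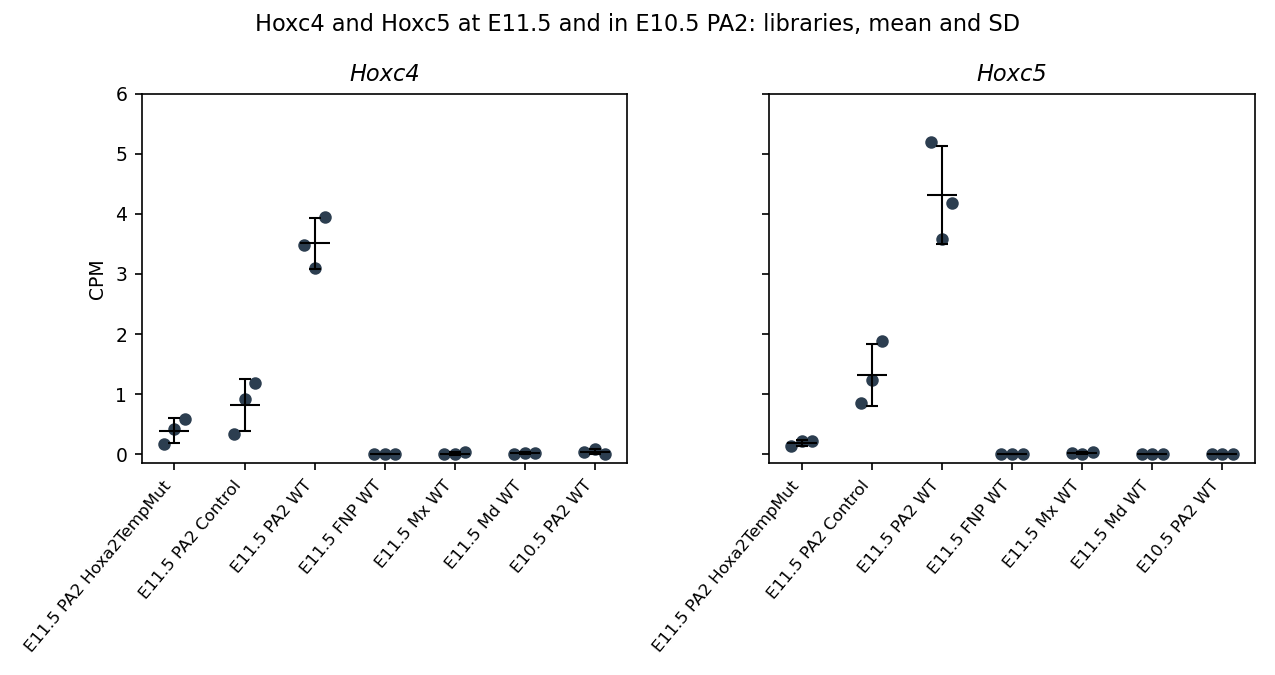
Hoxc4 and Hoxc5 levels in CPM in PA2 of E11.5 by genotype, in the other WT subpopulations of E11.5, and in WT PA2 of E10.5. Dots are libraries and bars are mean and SD. In PA2 of E11.5, Hoxa2TempMut has the lowest mean, Control the next, and every WT library lies above both.

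The PA2 groups of E11.5 with other genotypes had less of both genes. Hoxc4 had 12, 31 and 43 counts and Hoxc5 had 30, 42 and 68 counts in Control PA2, below every WT PA2 library. Against WT, Control was called lower for these 2 of 9 members, where 22.1% of all genes tested were called in either direction. Both were lower without overlap, as were 22.7% of all genes tested, a share close to 2 of 9. The log2 fold change was -2.10 ± 0.35 for Hoxc4 (adjusted p = 4.48e-05) and -1.70 ± 0.30 for Hoxc5 (adjusted p = 1.27e-04), lower in 3 of 3 libraries each. Markers of other cell types differed between these groups as well. Of 10 cranial mesoderm and muscle markers 7 were called higher in Control, with sums of 26.0 to 46.3 CPM in Control against 3.76 to 10.7 CPM in WT. Of 10 endothelial markers 4 were called lower, with sums of 6.07 to 8.44 CPM in Control against 14.4 to 16.1 CPM in WT, and 4 of 12 neuron and glia markers were called higher. Some other Hox genes were called lower too, 4 of 9 in HoxD and 2 of 10 in HoxB, including Hoxd4 and Hoxb4. The HoxB share is close to the 22.1% of all genes tested. In HoxA, 1 of 11 was called higher and 0 lower. The part of these markers in the HoxC difference was not tested. What else differs between Control and WT embryos is not given in the labels, so it and the genotype cannot be told apart.

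Hoxa2TempMut PA2 had less Hoxc5 again. Hoxc5 had 5, 7 and 8 counts in Hoxa2TempMut, against 30, 42 and 68 in Control, and the groups did not overlap, where 6.94% of all genes tested were lower without overlap. The log2 fold change was -2.77 ± 0.43 (adjusted p = 2.47e-04), the only member called lower, where 0.365% of all genes tested were called lower. Hoxc4 had 6, 14 and 21 counts in Hoxa2TempMut, against 12, 31 and 43 in Control, which overlap, with -1.05 ± 0.44 (adjusted p = 0.619). Gm20398, whose exon lies within Hoxc5, had 5 counts in Hoxa2TempMut against 38 in Control over 3 libraries each. Against WT PA2 both were called lower, at -3.15 ± 0.39 for Hoxc4 and -4.47 ± 0.40 for Hoxc5, where 15.5% of all genes tested were called lower. Hoxa2, the targeted gene, had 176 to 195 CPM in Hoxa2TempMut, against 268 to 269 CPM in Control and 183 to 199 CPM in WT. Its log2 fold change against Control was -0.54 ± 0.21, which was not called (adjusted p = 0.503). Summed cranial mesoderm and muscle markers were 18.7 to 23.0 CPM in Hoxa2TempMut against 26.0 to 46.3 CPM in Control. Epithelial sums were 8.02 to 9.66 against 11.6 to 14.4 CPM, and neuron and glia sums 20.7 to 21.7 against 24.9 to 28.2 CPM. No marker of these lists was called, and the sums of the other lists overlapped. The part of these markers in the Hoxc5 difference was not tested.

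No HoxC count was found where Hoxa2 was overexpressed. All 9 members had 0 counts in the 3 HoxA2OE Md libraries and 0 counts in the 3 WT Md libraries of E10.5, while Hoxa2 had 92.8 to 124 CPM in HoxA2OE, against 0.248 to 0.297 CPM in WT. A count of 0 over the 3 HoxA2OE libraries allows up to 0.0307 CPM for each member, where Hoxc8 averaged 17.5 CPM in Ezh2cKO Md. Replicate 1 of HoxA2OE stood apart from the other 2, with a chi-square per degree of freedom of 316 and 331 against them, and held 0 HoxC counts as they did. None of the 9 could be called (0 at an unadjusted p under 0.05, 0 by DESeq2), where 27.1% of all genes tested were called higher and 27.8% lower in HoxA2OE.

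E8.5 progenitors held a few HoxC counts, with 10, 55 and 3 over the 9 members in replicates 1, 2 and 3. Replicate 2 held most of them, with 40 counts of Hoxc8 and 9 of Hoxc4. Compared with E8.5, the mean of the 4 WT groups of E10.5 was called lower for 3 of 9 members, Hoxc4, Hoxc6 and Hoxc8, a share close to the 36.3% of all genes tested that were called lower. Without replicate 2 of E8.5 no member was called, and DESeq2 called 2. Hoxc6 had only 4 counts at E8.5 against 1 over the 11 WT libraries of E10.5. Its call was lost in 13 of 20 alternative fits, which include those with 1 library left out. Markers of other cell types changed too, with 10 of 10 endothelial and 9 of 9 epithelial markers called lower at E10.5. Of 8 erythroid markers 6 were called lower and 1 higher, and of 10 cranial crest mesenchyme markers 6 were called higher and 3 lower. At E8.5 the sums were 159 to 176 CPM for endothelium, 163 to 193 CPM for epithelium and 614 to 990 CPM for erythroid cells. Their part in the HoxC counts was not tested. The change of the WT mean from E10.5 to E11.5 over all 4 subpopulations called 0 of 9 (0 at an unadjusted p under 0.05, 2 by DESeq2), where 33.7% of all genes tested were called higher and 30.1% lower.

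**Figure D4:**
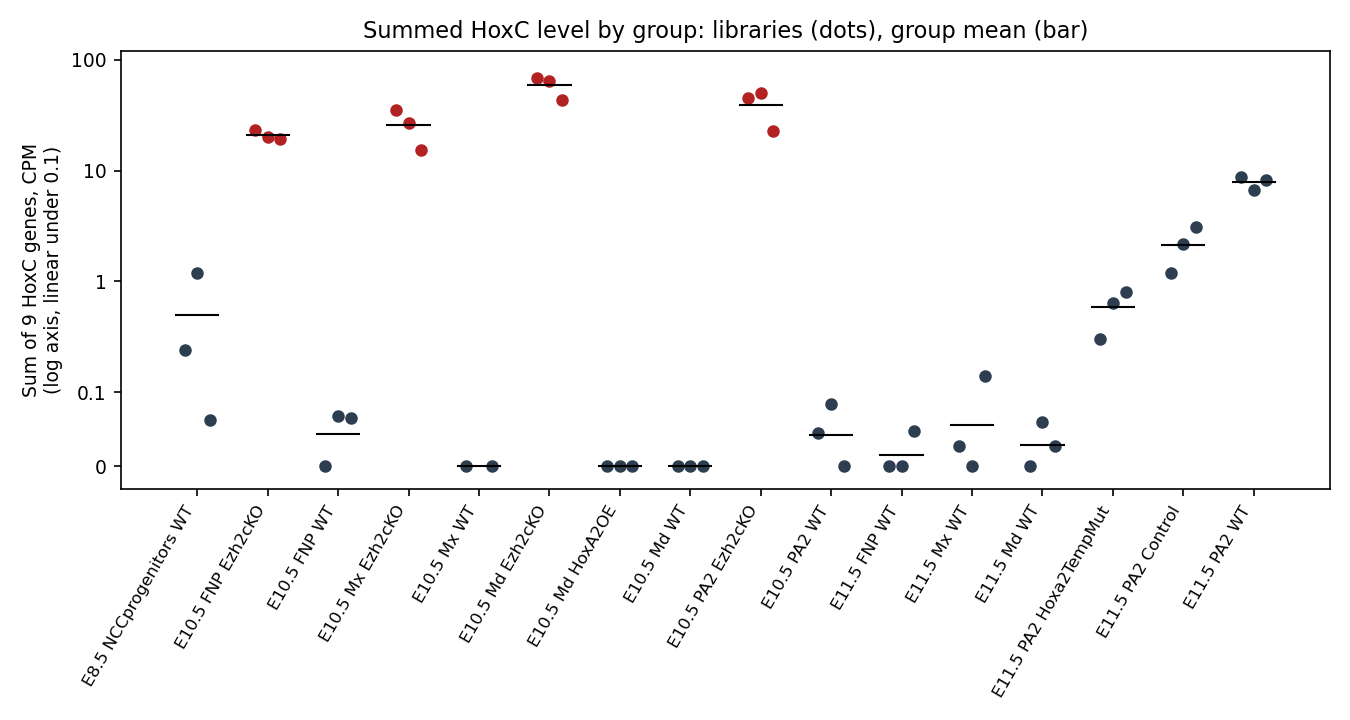
Sum of the 9 HoxC genes in CPM in each library, by group, on an axis that is logarithmic above 0.1 and linear under it, with group means as bars and Ezh2cKO in red. Ezh2cKO groups stand at 15.3 to 67.8 CPM, and in PA2 of E11.5 Hoxa2TempMut stands at 0.305 to 0.808 CPM, Control at 1.19 to 3.07 CPM and WT at 6.67 to 8.66 CPM.

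Across the 16 group means, the gene outside the Hox clusters whose log2 level was most like the mean of the HoxC members was AA465934, a processed transcript, with Pearson's r of 0.96 among 12941 genes of at least 5 CPM in 1 group. It averaged 8.40 ± 2.47 CPM in Ezh2cKO (SD, n = 12) against 2.93 ± 0.63 CPM in WT of E10.5 (n = 11). Next came Rnf213, which encodes a ubiquitin ligase (r = 0.89), Cdkn2c, which encodes an inhibitor of cyclin-dependent kinases (r = 0.89), Rwdd3 (r = 0.88) and Ptpn21, which encodes a tyrosine phosphatase (r = 0.88). The 12 Ezh2cKO libraries form 4 of the 16 groups, so the likeness rests in part on that genotype.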

How the data were processed

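RNA of microdissected, FACS-sorted cells was made into unstranded ScriptSeq v2 libraries and read as single-end 50-base reads, per the labels' protocols, and the submitters' processing notes name bcl2fastq 2.17 and the builds GRCm38 and mm10. The sources used here do not give the aligner, counter or annotation. The authors deposited raw counts per gene as whole numbers, with none normalized. Of the table's columns, 22 repeated another with identical values and were used once. Library totals ran from 18.8 to 49.8 M counts, of which 22.9% were mitochondrial.

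From these counts, genes were kept by edgeR's filterByExpr (minimum count 10, total 15), scaled by TMM and tested in 1 quasi-likelihood fit over all 47 libraries and 16 groups, with 31 residual degrees of freedom (edgeR 4.0.16, R 4.3.3). A gene was called at a Benjamini-Hochberg adjusted p under 0.05 over all 20560 genes. DESeq2 1.42.0 was an alternative, beside other scalings, no filter, fewer groups in the fit, the replicate number as a block and each library left out. CPM, and CPM per kb of exon, were computed from the counts and TMM totals. Floors are 3 counts over a group, and 95% intervals of ratios cover counting error only. Without strand, reads of a gene and its antisense partner cannot be told apart.

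The members and gene lists were chosen with earlier results of these data known. Named genes are the members, Ezh2, Hoxa2, other genes inside the cluster, the nearest expressed genes on each side, up to 3 called genes per list, up to 3 paralogues and the 5 genes of most similar pattern. Exceptions, named after their values were seen, are Eed, Gdf11 and the markers at 0. The Ezh2cKO comparisons of FNP, Mx and Md with the other 3 subpopulations, the comparison of Hoxa2TempMut with WT and the stage interaction were added after the data were seen. The scripts were tested on simulated counts. Homeobox stretches and 50-base matches were read from GENCODE M21 transcripts of GRCm38.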

Additional observations from a re-analysis of the deposited data

How the results depend on the processing

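Member counts called in Ezh2cKO against WT stayed within 1.5 times under every alternative run, at 8 to 9 on average, 7 to 8 in FNP, 7 to 9 in Mx, 8 to 9 in Md and 7 to 8 in PA2 when libraries were left out in turn. The results for WT PA2 at E11.5, Control and Hoxa2TempMut kept their member counts in each left-out fit. Leaving out 1 library gave 0 to 7 members in Ezh2cKO Md against the other 3, 2 to 4 in FNP, 0 to 1 in PA2, and 0 to 3 for E10.5 against E8.5. Spearman's rho between the fitted log2 fold change and position along the cluster ran from -0.68 to -0.21 in these fits. It was -0.21 with only the groups compared, over 8 members. As stated above, its ranks do not measure the order of release. With the difference in CPM per kb in place of the fold change, rho was -0.60, and -0.50 over 8 members without Hoxc12. With only the groups compared, 0 members were called for E10.5 against E8.5. DESeq2 called 4 members in Md against the other 3, 2 for the mean WT change from E10.5 to E11.5 and 2 for the stage interaction of PA2, and treating WT of a stage as 1 group also gave 2 for the mean change. The cause was not tested.

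Sign changes were seen only for members that were not called. Hoxc13 in FNP against the other 3 had a log2 difference of 0.0112 with the replicate block and -0.141 to 0.0776 without single libraries, and Hoxc12 in Mx had 0.12 without replicate 3 of Mx, Md and PA2 and -0.60 to 0.22 without single libraries. Without single libraries Hoxc11 in Mx ran from -0.625 to 0.196, Hoxc6 in PA2 from -0.0752 to 0.288 and Hoxc9 in PA2 from -0.0710 to 0.353. Same-numbered Ezh2cKO and WT libraries did not deviate together (correlations of -0.06 to 0.06), so numbers were not taken as pairs. Between the 4 Ezh2cKO groups, same-numbered libraries had correlations of 0.01 to 0.21 for replicate 1, -0.04 to 0.13 for replicate 2 and 0.04 to 0.21 for replicate 3, which is not over 0.1 for every pair. For Hoxa2TempMut with Control they were -0.02 to 0.11. With the replicate block, 9 members were called on average and 8 in Ezh2cKO Md against the other 3.

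Over the whole table, with only the groups compared, 3026 genes were called for Ezh2cKO against WT in PA2, where the main fit called 1885. The counts were 6400 in HoxA2OE against 11277 in the main fit, and 247 in Hoxa2TempMut against 128. For a subpopulation set against the other 3 within Ezh2cKO, they were 1928 in Md against 1139 and 2669 in PA2 against 1679. For the interactions they were 546, 173 and 545 against 335, 106 and 266. DESeq2 gave 758 and 404 where the main fit of the interactions gave 335 and 266. Without replicate 3 of Ezh2cKO Mx, Md and PA2, the comparison of Ezh2cKO PA2 with the other 3 had 1012. Against all WT of E10.5 as 1 group, the counts were 3088 in FNP against 1398, 3702 in Mx against 2111, 2889 in Md against 1823 and 3570 in PA2 against 1885. Depth limits Hoxc11 and Hoxc12, at 1 to 29 counts per Ezh2cKO library.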
